A study of Mus musculus with 16 samples.

Results

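The 10 mitochondrially encoded genes described here are *mt-Nd1*, *mt-Nd2*, *mt-Nd3*, *mt-Nd4*, *mt-Nd5*, *mt-Co1*, *mt-Co2*, *mt-Co3*, *mt-Atp6* and *mt-Cytb*, taken by their symbols from the 32285 genes counted in the RNA matrices. All 10 were found in each of the 8 libraries. The data are single-nucleus Multiome libraries (RNA and accessible chromatin of the same nucleus) from microdissected dentate gyrus (DG) that was frozen before the nuclei were isolated. There was 1 library per mouse, from 4 WT mice (genotype VV) and 4 mice homozygous for the V321L mutation of *Nrg1* (genotype LL), each group with 2 females (F1, F2) and 2 males (M1, M2). No agent was given, and the labels give neither the age of these mice nor a batch or date. Genotype therefore cannot be told apart from any difference in how the 2 groups of libraries were prepared or sequenced.

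Mitochondrial DNA carries 13 protein-coding genes, each for a core subunit of the respiratory chain or of ATP synthase. They are transcribed inside the mitochondrion as long polycistronic RNAs, which are cut into messages there, most of them polyadenylated. The remaining subunits of each complex are encoded in the nucleus. These messages are made and kept outside the nucleus, and their share of the RNA is widely used as a quality measure of single-cell and single-nucleus libraries. GCs are the principal excitatory neurons of the DG.

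The members fall into 4 groups by the complex they serve, and their positions are those of the RefSeq annotation of mm10, the build named in the labels. Complex I, which passes electrons from NADH to ubiquinone, takes its subunits from *mt-Nd1* (chromosome M, 2751 to 3707), *mt-Nd2* (3914 to 4951), *mt-Nd3* (9459 to 9806), *mt-Nd4* (10167 to 11544) and *mt-Nd5* (11742 to 13565). Complex III, which passes electrons on to cytochrome c, takes cytochrome b from *mt-Cytb* (14145 to 15288). Complex IV, cytochrome c oxidase, takes its catalytic core from *mt-Co1* (5328 to 6872) and *mt-Co2* (7013 to 7696) and a further core subunit from *mt-Co3* (8607 to 9390). ATP synthase takes the subunit a of its proton channel from *mt-Atp6* (7927 to 8607). All are single coding exons without introns. Neighbouring genes overlap in 4 places, by 43 bp between *mt-Atp8* and *mt-Atp6*, 14 bp between *mt-Nd5* and *mt-Nd6*, 7 bp between *mt-Nd4l* and *mt-Nd4* and 1 bp between *mt-Atp6* and *mt-Co3*, so reads there cannot be assigned with certainty. The nuclear genome also carries near-identical copies of mitochondrial sequence, whose reads the counting could have placed on these genes.

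The libraries held 4326426 to 14624265 RNA unique molecular identifiers (UMIs) for the WT mice and 15505354 to 23582057 for the V321L mice. From each WT mouse 1789 to 3631 nuclei were kept, and from each V321L mouse 1635 to 2465. Nuclei were assigned to a cell class by the number of its marker genes with a UMI, and GCs numbered 1348 to 2526 in the WT and 896 to 1387 in the V321L mice. Their median UMIs per nucleus ranged from 1105 to 1967 in WT mice and from 3253 to 4686 in V321L mice. Levels are given as counts per 1000000 RNA UMIs (CPM) of the nuclei or barcodes summed for a mouse. The 8 GC markers were seen in the GCs of every mouse, at a summed level of 7103 to 7959 CPM in WT and 4704 to 5369 in V321L mice. Any 2 libraries shared at most 16 nucleus barcodes. Low-UMI barcodes, those with at most 100 UMIs, were taken as a measure of the free RNA outside nuclei.

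Mitochondrially encoded RNA made up a larger share of the V321L than of the WT libraries. Over all barcodes the 10 genes took 1.25%, 1.22%, 1.34% and 0.808% of the RNA UMIs of WT F1, F2, M1 and M2, and 7.71%, 5.45%, 8.61% and 8.85% of those of V321L F1, F2, M1 and M2. The genotypes did not overlap, with means of 1.15% ± 0.237 and 7.66% ± 1.55 (SD, n = 4 each; two-sided exact permutation test, p = 0.0286, below which 4 against 4 mice cannot go). The same p applies to every comparison of shares below in which the genotypes did not overlap.

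Within GCs the share was lower and the genotypes again stood apart. It was 0.216%, 0.186%, 0.329% and 0.235% in the GCs of WT F1, F2, M1 and M2 and 1.46%, 0.482%, 1.23% and 2.04% in those of V321L F1, F2, M1 and M2. The lowest V321L mouse, F2, lay above the highest WT mouse, M1. The means were 0.241% ± 0.0619 in WT and 1.30% ± 0.645 in V321L GCs (SD, n = 4 each), a difference of 1.06 percentage points and a 5.40-fold ratio (exact permutation test, p = 0.0286). With the study's limit on the mitochondrial share the difference was 0.639 percentage points, and between the medians over GCs 0.696 (exact permutation test, p = 0.0286 in both). Without any 1 of the WT mice p was 0.0571, although the remaining mice still did not overlap.

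**Figure D1:**
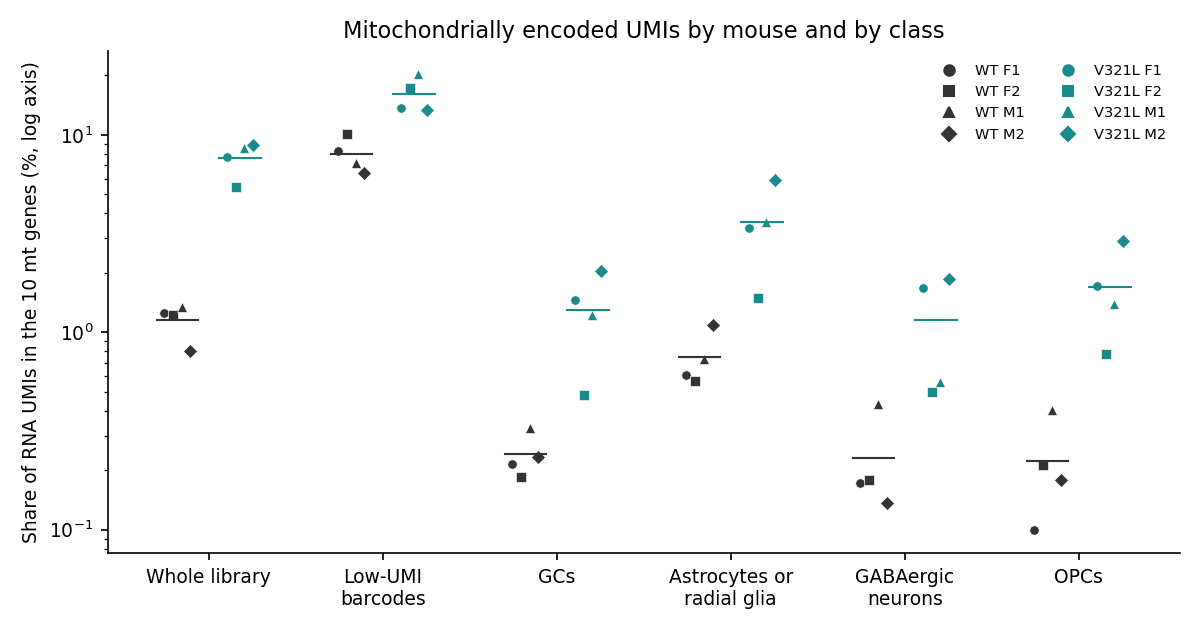
Share of RNA UMIs in the 10 mitochondrially encoded genes (y axis, percent, log scale) for whole libraries, low-UMI barcodes and 4 cell classes. Each point is a mouse (WT dark, V321L teal, the symbol giving the replicate) and each bar the mean of 4 mice. V321L mice lie above WT mice in all 6 columns, and the low-UMI barcodes lie above the nuclei of the same mouse.

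The genotypes also stood apart in the typical GC. The median GC had a share of 0.0846%, 0.117%, 0.136% and 0.0668% in WT F1, F2, M1 and M2, and of 0.990%, 0.301%, 0.627% and 1.27% in V321L F1, F2, M1 and M2. Among WT mice 21.7% to 33.7% of the GCs had no UMI of any of the 10 genes, against 0 to 0.408% in V321L mice. The lowest of these was 0 of 1130 GCs in V321L M2, which allows a share of up to 0.265% by counting error alone. With each GC thinned to 1000 UMIs, which leaves out the shallower ones, these ranges were 34.6% to 48.2% and 0.270% to 12.4%. The tenth of GCs with the most mitochondrial UMIs held between 47.2% and 68.6% of them in WT mice and 39.5% to 43.4% in V321L mice. GCs above the study's limit on the mitochondrial share made up 0.317% to 1.64% of WT and 1.72% to 19.2% of V321L GCs. They were kept here, because removing them would cut off the quantity being measured.

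At matched depth the V321L GCs also had the higher share. Among GCs with more than 500 and under 1000 UMIs the share was 0.312% ± 0.0672 for WT against 2.08% ± 0.585 for V321L (n = 4 mice each, SD). From 1000 to under 2000 UMIs it was 0.265% ± 0.0470 and 1.49% ± 0.444, and from 2000 to under 4000 UMIs 0.225% ± 0.0602 and 1.09% ± 0.553. From 4000 UMIs upward it was 0.211% ± 0.0654 and 1.43% ± 0.760. In all 4 ranges the genotypes did not overlap (exact permutation test, p = 0.0286 in each and 0.0286 adjusted over the 4). The ranges rest on as few as 9, 15, 157 and 25 GCs in the mouse with the fewest.

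Low-UMI barcodes held higher shares than the nuclei of any class. They gave 8.31%, 10.1%, 7.21% and 6.39% in WT F1, F2, M1 and M2 and 13.7%, 17.3%, 20.4% and 13.3% in V321L F1, F2, M1 and M2, with no overlap between genotypes. The means were 7.99% ± 1.59 and 16.2% ± 3.34 (SD, n = 4 each; exact permutation test, p = 0.0286), a 2.03-fold ratio. Other RNA of these barcodes moved with genotype too. All 8 oligodendrocyte markers were seen there in every mouse, at a summed level of 1284 to 2203 CPM in WT and 2775 to 5174 in V321L mice, while the 8 GC markers, also all seen, had summed levels of 2084 to 2499 and of 661 to 840. Among the marker lists used, only that of oligodendrocytes was higher there without overlap. The markers of astrocytes or radial glia were lower, with 1029 to 2350 CPM in WT and 480 to 684 in V321L mice, and those of microglia overlapped. The part of this other RNA in the difference of the mitochondrial share was not tested.

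Barcodes with more than 1000 UMIs held lower shares than the low-UMI barcodes in both genotypes, but the drop came at a different depth. With at most 10 UMIs it lay below the next range in both, at 5.74% ± 1.10 in WT and 10.95% ± 1.49 in V321L mice. It was 10.1% ± 1.44 in WT and 16.2% ± 3.75 in V321L barcodes with more than 10 and at most 50 UMIs, and 9.60% ± 1.20 and 17.7% ± 4.34 with more than 50 and at most 100 UMIs. Between 100 and 500 UMIs it had dropped to 4.14% ± 1.82 in WT and was 17.1% ± 4.03 in V321L mice. Between 500 and 1000 UMIs it was 0.777% ± 0.404 and 12.2% ± 1.83 (n = 4 mice each, SD, for all these values). These are shares over all barcodes of a range, nuclei or not. V321L libraries held between 10928 and 31543 barcodes with more than 50 and at most 100 UMIs, and WT libraries between 1088 and 3574.

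**Figure D2:**
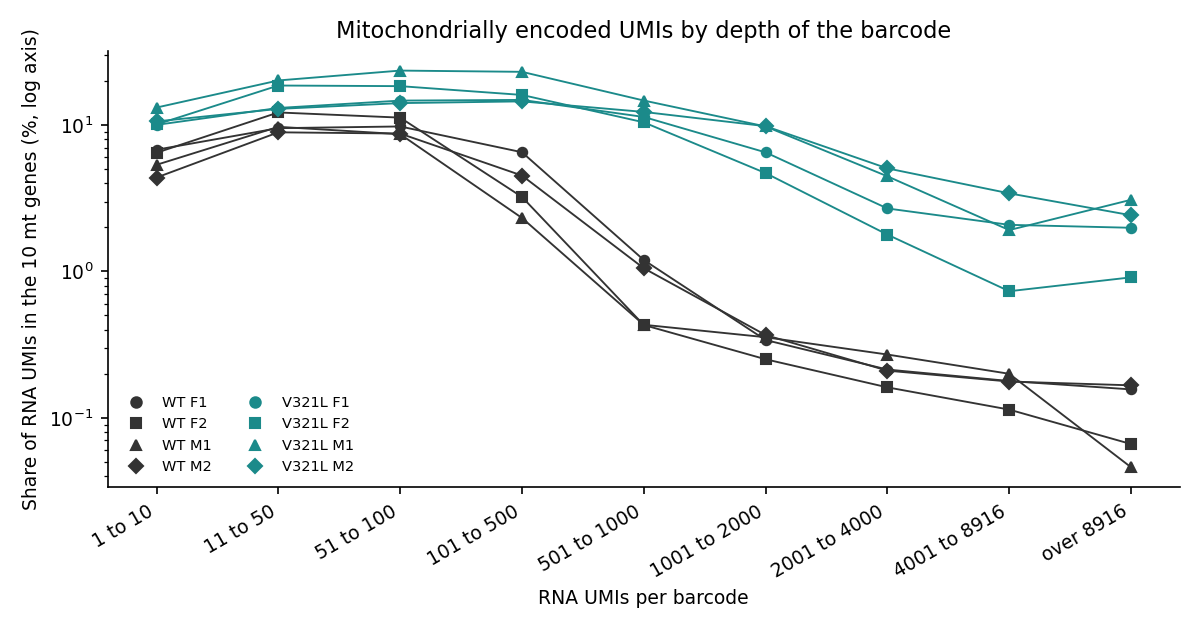
Share of RNA UMIs in the 10 mitochondrially encoded genes (y axis, percent, log scale) against the RNA UMIs per barcode in 9 ranges (x axis), 1 line per mouse. WT mice (dark) drop between 100 and 1000 UMIs and V321L mice (teal) later, and the ratio of the means is largest, 23.4-fold, above 1000 and up to 2000 UMIs.

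Relative to the free RNA of the same library, the genotypes overlapped. The GC share was 2.60%, 1.84%, 4.56% and 3.67% of that of the low-UMI barcodes in WT F1, F2, M1 and M2, and 10.6%, 2.78%, 6.01% and 15.3% in V321L F1, F2, M1 and M2. V321L F2 lay between the WT mice, and the other 3 V321L mice lay above all WT mice. On the log2 scale the means were -5.06 ± 0.573 in WT and -3.79 ± 1.07 for V321L, a difference of 1.27 that did not pass the test (SD, n = 4 each; exact permutation test, p = 0.114). Without V321L F2 the difference was 1.73 (exact permutation test, p = 0.0286), so the call rests on that mouse.

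The 10 genes kept nearly the same proportions to each other in GCs as in the free RNA of the same library. Within a mouse the ratio of the GC level to the low-UMI level differed between the lowest and the highest of the 10 genes by 1.20 to 1.67 times, while the ratio for the summed genes spanned 1.84% to 15.3% between mice. *mt-Nd1* lay above the summed ratio in 8 of 8 mice, by 1.10 to 1.33 times, and was the highest gene in 7 of them. *mt-Co1* lay below it in 7 of 8 mice, at 0.754 to 1.02 times, and was the lowest gene in 6.

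Complex I genes in GCs ranged from a rise in V321L mice to none. *mt-Nd1* was at 177, 159, 230 and 230 CPM in the GCs of WT F1, F2, M1 and M2 and at 1778, 538, 1718 and 2406 in those of V321L F1, F2, M1 and M2. V321L mice were higher without overlap, and *mt-Nd1* rose by 2.60 ± 0.34 (SE) on the log2 scale (adjusted p = 2.47e-05). Here and below, adjusted p are those of the edgeR quasi-likelihood test on counts summed per mouse, corrected over all 12625 genes tested in GCs by the Benjamini-Hochberg method. *mt-Nd2* had 132 to 229 CPM in WT and 294 to 1248 in V321L mice, also without overlap, and rose by 1.82 ± 0.32 (adjusted p = 0.000258).

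For the other 3 genes of complex I the genotypes overlapped. *mt-Nd4* was at 292, 246, 422 and 348 CPM in WT F1, F2, M1 and M2 and at 1005, 359, 887 and 1387 in V321L F1, F2, M1 and M2, with V321L F2 inside the WT range. It rose by 1.07 ± 0.30 (adjusted p = 0.0063). *mt-Nd3* had 42.5 to 120 CPM in WT and 60.7 to 231 in V321L mice, and rose by 0.99 ± 0.37 (adjusted p = 0.0271). This call was lost without WT F1, WT F2, WT M2, V321L M1 or V321L M2 (adjusted p from 0.0588 to 0.0859). With the study's limit on the mitochondrial share it was lost too (0.57, adjusted p = 0.0844).

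*mt-Nd5*, the gene of a proton-pumping subunit of complex I, was the only one of the 10 without a rise in V321L GCs. It was at 132, 91.0, 192 and 123 CPM in WT F1, F2, M1 and M2 and at 119, 43.2, 111 and 203 in V321L F1, F2, M1 and M2, and the genotypes overlapped. The difference was -0.57 ± 0.34 on the log2 scale (adjusted p = 0.144). It was called lower without V321L M2 (-0.95, adjusted p = 0.00996), which had the highest level of the 8 mice. With the study's limit on the mitochondrial share, which cuts off the quantity being measured, it was also called lower (-1.04, adjusted p = 0.00179). The difference was smaller and not called with library sizes in place of TMM normalization (-0.17, adjusted p = 0.679). The same held without an ATAC minimum (-0.18, adjusted p = 0.653) and without upper limits on UMIs and genes (-0.28, adjusted p = 0.448).

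The complex IV genes differed among themselves. *mt-Co3* showed the largest rise of the 10 genes. It was at 181, 168, 376 and 211 CPM in WT F1, F2, M1 and M2 and at 3270, 1074, 2644 and 4378 in V321L F1, F2, M1 and M2, with no overlap, and rose by 3.22 ± 0.36 on the log2 scale (adjusted p = 7.95e-06). *mt-Co2* had 227 to 406 CPM in WT and 729 to 3112 in V321L mice and rose, without overlap, by 2.37 ± 0.33 (adjusted p = 4.35e-05). *mt-Co1*, the catalytic subunit with the heme-copper centre, had 268 to 465 in WT and 339 to 1459 in V321L mice, which overlapped. The call of its rise of 0.92 ± 0.33 (adjusted p = 0.0226) was lost without WT F1, WT F2, WT M2 or V321L M2 (adjusted p from 0.0566 to 0.0808). With the study's limit on the mitochondrial share it was lost too (0.53, adjusted p = 0.0582).

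*mt-Atp6* and *mt-Cytb* rose to about the same extent. *mt-Atp6* was at 376, 331, 550 and 385 CPM in the GCs of WT F1, F2, M1 and M2 and at 2581, 847, 2066 and 3904 in those of V321L F1, F2, M1 and M2, a rise of 2.11 ± 0.34 on the log2 scale (adjusted p = 0.000126). *mt-Cytb* had 193 to 299 CPM in WT and 533 to 2078 in V321L mice and rose by 2.14 ± 0.31 (adjusted p = 5.12e-05). Neither gene overlapped between genotypes.

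Of the 10 genes, 9 were thus called higher and 0 lower in V321L GCs, where 38.6% of all tested genes were called higher and 31.8% lower. The median log2 fold change was 1.97 over the 10 genes and 0.11 over all genes. For 6 of the 10 all V321L mice were above all WT mice, and the same held for 47.6% of all tested genes. DESeq2 called 7 of the 10 higher, with *mt-Nd3* and *mt-Co1* not passing (adjusted p of 0.0886 and 0.0643).

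**Figure D3:**
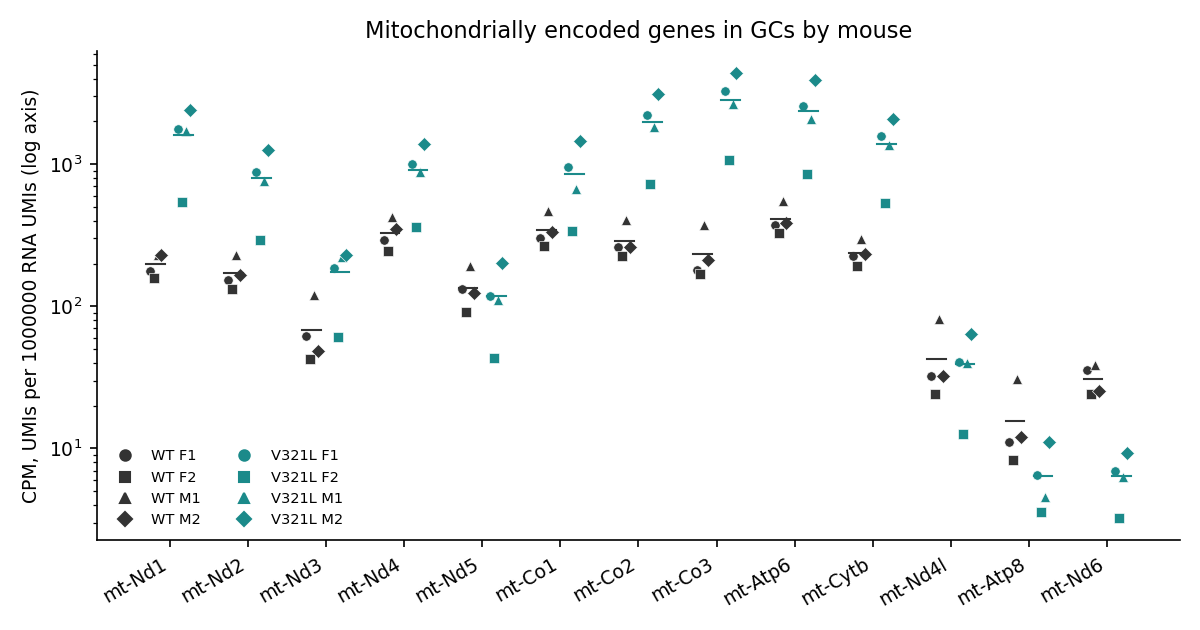
Level of each mitochondrially encoded gene in GCs (y axis, CPM, log scale), 1 point per mouse (WT dark, V321L teal) and bars for the mean of 4 mice. The 10 genes described stand first, followed by *mt-Nd4l*, *mt-Atp8* and *mt-Nd6*, and *mt-Co3* shows the widest gap between genotypes while *mt-Nd5* overlaps.

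The 3 other mitochondrially encoded genes in the matrices went the other way or did not pass the test. *mt-Nd6*, the complex I gene on the opposite strand, was at 35.5, 24.2, 38.7 and 25.5 CPM in the GCs of WT F1, F2, M1 and M2 and at 6.90, 3.23, 6.28 and 9.29 in those of V321L F1, F2, M1 and M2. It fell by 2.70 ± 0.25 on the log2 scale (adjusted p = 2.34e-06), with no overlap. *mt-Atp8*, an ATP synthase gene, fell by 1.59 ± 0.39 (adjusted p = 0.00291) with overlap between the genotypes. *mt-Nd4l*, a complex I gene, differed by -0.46 ± 0.41 (adjusted p = 0.324). *mt-Atp8* overlaps *mt-Atp6*, and *mt-Nd4l* overlaps *mt-Nd4*. Whether the genes of each pair changed as separate messages cannot be told from these counts.

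The make-up of the mitochondrial RNA differed between the genotypes. For *mt-Co3*, *mt-Co1*, *mt-Nd4* and *mt-Nd5* it did so by far more than between mice of a genotype. In GCs *mt-Co3* gave 9.46% ± 1.35 of the UMIs of the 10 genes for WT against 21.9% ± 0.513 for V321L (n = 4 mice each, SD). *mt-Co1* went from 14.2% ± 0.218 to 6.55% ± 0.786, and *mt-Nd4* from 13.6% ± 0.875 to 7.09% ± 0.301. *mt-Nd5* went from 5.52% ± 0.546 to 0.902% ± 0.0728. The shares of 8 of the 10 genes did not overlap between genotypes, 3 of them higher in V321L mice (*mt-Nd1*, *mt-Co2* and *mt-Co3*) and 5 lower (*mt-Nd2*, *mt-Nd3*, *mt-Nd4*, *mt-Nd5* and *mt-Co1*). *mt-Atp6* and *mt-Cytb* overlapped, with *mt-Atp6* at 17.1% ± 0.630 in WT and 17.8% ± 0.965 in V321L GCs. The 10 shares are parts of 1 sum, so a larger share of 1 gene lowers those of others. They are defined for the 10 genes only, so the count of 8 has no background over all genes. A lower share is not a lower level, and of the 5 genes only *mt-Nd5* was without a rise in GCs.

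The free RNA had nearly the same make-up as the GCs, apart from the shifts of *mt-Nd1* and *mt-Co1* given above. In low-UMI barcodes *mt-Co3* gave 9.31% ± 1.03 of the UMIs of the 10 genes in WT and 22.8% ± 0.400 for V321L (n = 4 mice each, SD), *mt-Co1* 15.5% ± 0.942 and 7.84% ± 0.458, and *mt-Nd5* 5.54% ± 0.433 and 0.933% ± 0.0436. The same 8 genes lay apart there in the same directions. In astrocytes or radial glia, GABAergic neurons and oligodendrocyte precursors (OPCs) of V321L mice *mt-Co3* gave 22.0% ± 0.723, 22.2% ± 0.243 and 22.1% ± 0.417. In WT mice these values were 8.81% ± 2.16, 9.71% ± 4.71 and 7.43% ± 4.69, on as few as 206, 272 and 90 UMIs of the 10 genes per mouse.

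**Figure D4:**
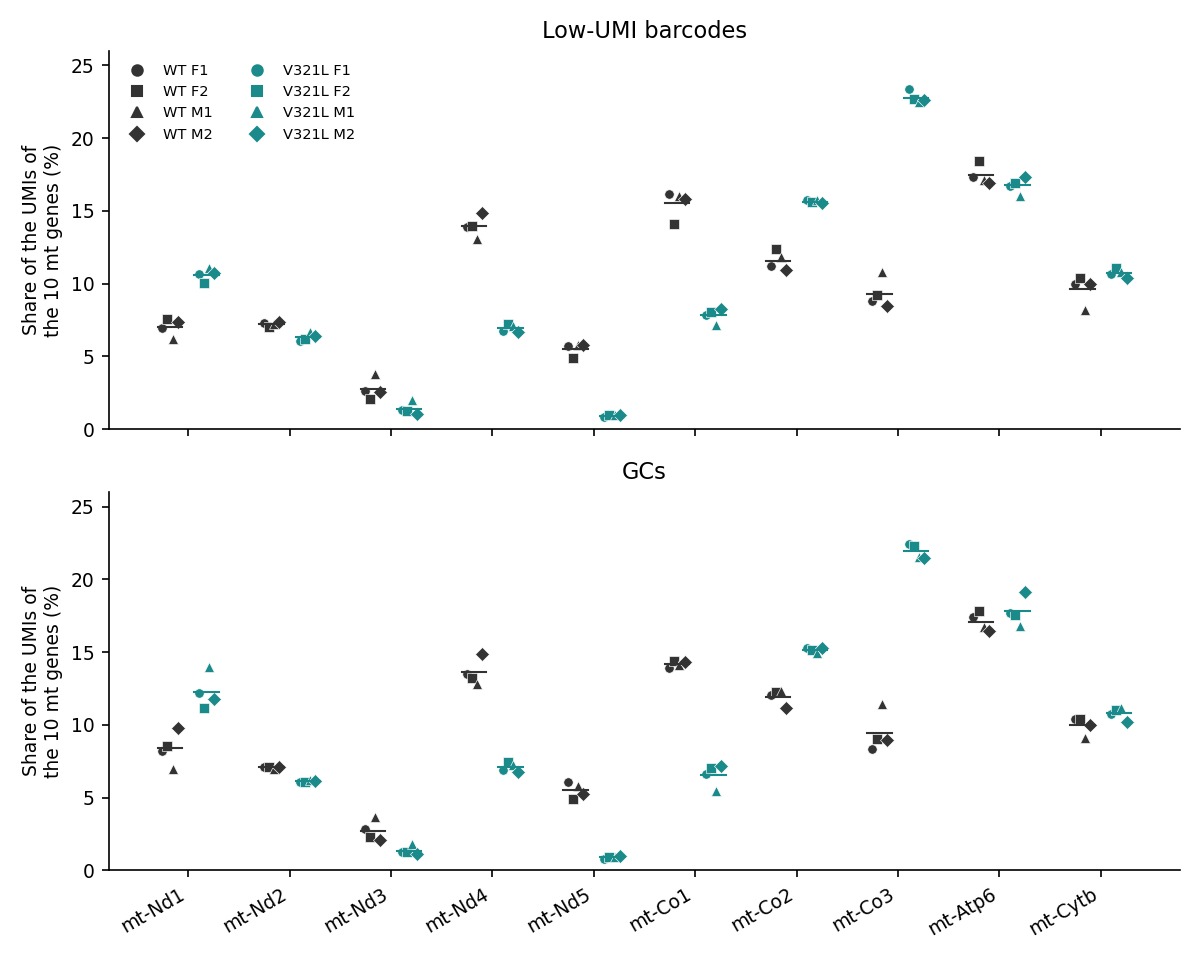
Share of each gene in the UMIs of the 10 mitochondrially encoded genes (y axis, percent) in low-UMI barcodes (top) and GCs (bottom), 1 point per mouse (WT dark, V321L teal) and bars for the mean of 4 mice. The 2 panels show nearly the same pattern, with *mt-Co3* near 9% in WT and 22% in V321L mice, and *mt-Nd5* near 5% and 1%.

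Set relative to the summed 10 genes, which removes the overall rise, the differences in make-up were tested over all genes. In low-UMI barcodes *mt-Co3* rose by 1.29 ± 0.21 (SE) on the log2 scale (adjusted p = 1.14e-09) and *mt-Nd1* by 0.59 ± 0.21 (adjusted p = 0.00795). *mt-Co2* rose by 0.43 ± 0.21 (adjusted p = 0.0468). With 1 mouse left out, this call was kept only without WT M1 and without V321L M1, and lost without any other (highest adjusted p 0.118). *mt-Nd5* fell by 2.57 ± 0.24 (adjusted p = 1.50e-24), *mt-Nd4* by 1.0 ± 0.21, *mt-Co1* by 0.99 ± 0.21 and *mt-Nd3* by 0.97 ± 0.24 (adjusted p of 4.82e-06, 5.77e-06 and 9.36e-05). On this scale 14.8% of all tested genes rose and 62.4% fell. A gene that rose less than the summed 10 genes counts as falling here, so these percentages are no background for the make-up.

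In GCs the same model called only *mt-Nd5* among the 10, which fell by 2.61 ± 0.60 (adjusted p = 8.10e-05). Of all tested genes 3.83% rose and 61.0% fell on this scale, with the same limit on what these percentages mean. Without V321L F2 it called 5 of the 10, with *mt-Co3* higher (adjusted p = 0.000629) and *mt-Nd3*, *mt-Nd4*, *mt-Nd5* and *mt-Co1* lower, and without any other 1 mouse it called *mt-Nd5* alone. *mt-Co3* differed by 1.21 ± 0.59 (adjusted p = 0.061) and *mt-Co1* by -1.12 ± 0.59 (adjusted p = 0.0832). The SE of *mt-Co3* was 0.59 here and 0.21 in the low-UMI fit, and the spread is estimated over all genes on this scale. A gene not called in this fit is therefore not shown to keep its share. The measured share of *mt-Co1* in the UMIs of the 10 genes was 13.9% to 14.4% in WT and 5.43% to 7.15% in V321L GCs. In the GC fit *mt-Nd4l* fell by 2.49, *mt-Atp8* fell by 3.52 and *mt-Nd6* fell by 4.63 relative to the 10 genes (adjusted p of 7.43e-05, 1.42e-07 and 3.42e-11).

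The order of the genes by level per length also differed between the genotypes. In WT GCs *mt-Atp6* led with 603 ± 141 CPM for each kb of coding length, before *mt-Co2* with 422 ± 116 and *mt-Co3* with 298 ± 123, in that order in 4 of 4 mice (SD, n = 4). *mt-Nd4* followed with 212, 179, 306 and 253 in WT F1, F2, M1 and M2, above *mt-Co1*, *mt-Cytb* and *mt-Nd1* in 4 of 4 mice. *mt-Co1* with 222 ± 56.0, *mt-Cytb* and *mt-Nd1* were not ordered among themselves, each pair keeping its order in 3 of 4 mice. All of them lay above *mt-Nd2* with 164 ± 40.3 in 4 of 4 mice. *mt-Nd3* was not separated from any of these genes. *mt-Nd5* was the lowest of the 10, with 73.7 ± 23.1.

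In V321L GCs *mt-Co3* led with 3624 ± 1759 CPM for each kb, above *mt-Atp6* with 3450 ± 1859 in 3 of 4 mice, and so not separated from it. *mt-Co2* with 2889 ± 1444, *mt-Nd1* with 1683 ± 815, *mt-Cytb* with 1212 ± 562, *mt-Nd2* with 768 ± 379, *mt-Nd4* with 660 ± 308 and *mt-Co1* with 554 ± 308 followed in the same order in 4 of 4 mice. *mt-Nd3* lay below *mt-Co1* in 3 of 4 mice, and *mt-Nd5* was again the lowest, with 65.1 ± 35.8. The kit counts the 3' ends of polyadenylated RNA, so that a level per length is not a number of molecules.

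Outside GCs most of the 10 genes were higher in V321L mice too. In astrocytes or radial glia 8 were called higher and 0 lower (25.5% and 19.9% of the 3192 genes tested there). In GABAergic neurons these were 9 and 0 (19.0% and 14.2% of 3639), and in OPCs 9 and 0 (18.9% and 17.2% of 2767). These fits thus cover fewer genes than the 12625 of the GC fit. *mt-Co3* showed the largest fold change in each, with 3.73 ± 0.44, 3.47 ± 0.56 and 4.42 ± 0.56 on the log2 scale (adjusted p of 5.22e-05, 0.000242 and 2.63e-05). *mt-Nd5* was the smallest in each, with 0.06 ± 0.44, 0.18 ± 0.37 and 0.86 ± 0.48, and was not called (adjusted p of 0.923, 0.74 and 0.187).

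In low-UMI barcodes 6 of the 10 were called higher and 1 lower, where 37.6% of the 11087 tested genes were called higher and 37.6% lower. *mt-Co3* was at 7305, 9256, 7773 and 5402 CPM in WT F1, F2, M1 and M2 and at 32067, 39236, 45917 and 30202 in V321L F1, F2, M1 and M2, a rise of 2.67 ± 0.29 (adjusted p = 3.32e-09). *mt-Nd5* was at 4731, 4923, 4168 and 3693 in the WT and at 1192, 1642, 1950 and 1284 in the V321L mice, and fell by 1.17 ± 0.21 (adjusted p = 1.83e-05). Both genes were without overlap, in opposite directions. *mt-Nd3*, *mt-Nd4* and *mt-Co1* did not pass the test (adjusted p of 0.0843, 0.168 and 0.149).

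**Figure D5:**
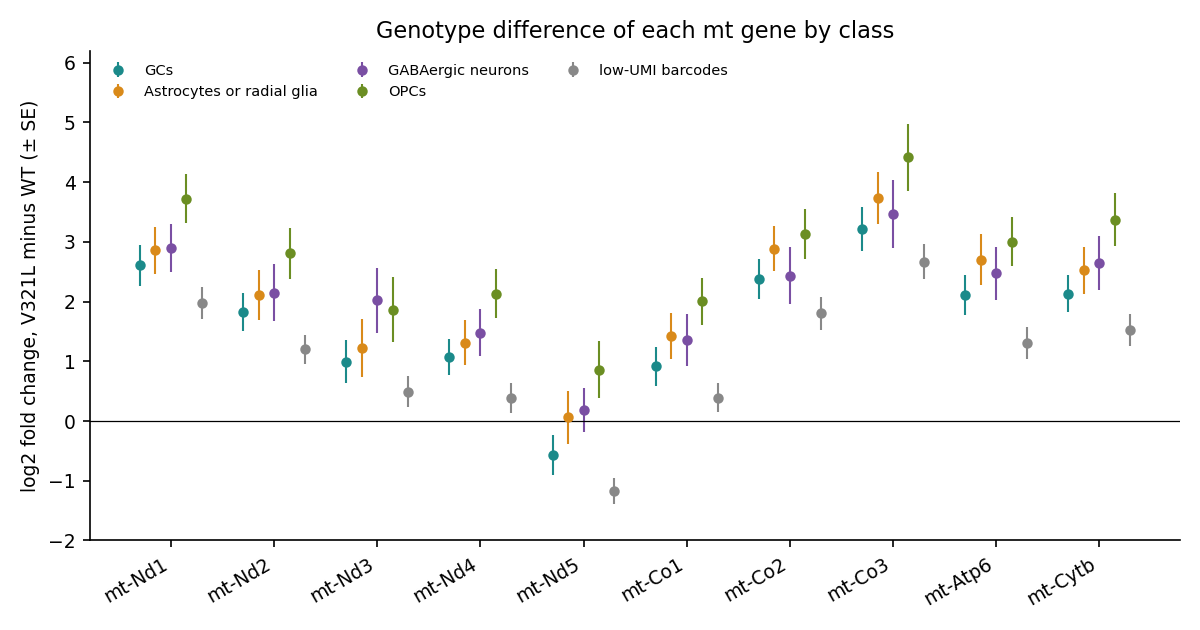
Genotype difference of each gene (y axis, log2 fold change, V321L minus WT, with bars of 1 SE from edgeR) in GCs, 3 other classes and low-UMI barcodes. *mt-Co3* is the highest and *mt-Nd5* the lowest gene in each of the 5 fits, and *mt-Nd5* lies below 0 in GCs and in low-UMI barcodes. Each fit has its own TMM normalization, so the fits do not share 1 scale.

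Among the cell classes of the same mice, astrocytes or radial glia had the highest mitochondrial share of the 4 classes with at least 20 nuclei in every mouse. They gave 0.608%, 0.564%, 0.733% and 1.09% in WT F1, F2, M1 and M2 and 3.37%, 1.50%, 3.62% and 5.94% in V321L F1, F2, M1 and M2. This was above the GCs in 8 of 8 mice, by 2.23 to 4.64 times and 2.93 times on the geometric mean (two-sided exact sign-flip test, adjusted p = 0.0234 over 3 classes). The geometric mean was 1.75 times with the study's limit on the mitochondrial share and 5.06 times without a minimum of ATAC counts, again in 8 of 8 mice. Their median UMIs per nucleus were lower than those of the GCs, 823 to 1003 in WT and 1383 to 1914 in V321L mice, and the part of depth in this difference was not tested.

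GABAergic neurons and OPCs were not separated from GCs by the test. GABAergic neurons gave 0.137% to 0.433% in WT and 0.501% to 1.87% in V321L mice, above the GCs in 3 of 8 mice and at 0.458 to 1.32 times their share (exact sign-flip test, adjusted p = 0.457). OPCs gave 0.0993% to 0.405% in WT and 0.780% to 2.91% in V321L mice, above the GCs in 6 of 8 mice and at 0.460 to 1.62 times their share (exact sign-flip test, adjusted p = 0.719). With a gate of 3 instead of 2 markers OPCs were higher in 7 of 8 mice, by 1.50 times (adjusted p = 0.0469). The genotype difference in the log2 ratio to GCs was -0.13 for astrocytes or radial glia, -0.06 for GABAergic neurons and 0.66 for OPCs (exact permutation test, p of 0.771, 0.886 and 0.143).

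In 3 further classes the values rest on few nuclei in at least 1 WT mouse and were not compared with GCs. Oligodendrocytes, which numbered 14 to 56 in WT and 177 to 251 in V321L mice, gave 0.235% to 0.499% and 2.20% to 5.10%. Microglia numbered 7 to 24 in WT and 71 to 111 in V321L mice, with as few as 8 UMIs of the 10 genes. They gave between 0.0654% and 0.349% and between 1.52% and 5.47%. Excitatory neurons other than GCs numbered 9 to 56 in WT and 37 to 116 in V321L mice. They gave 0.0761% to 0.116% in WT and 0.286% to 1.28% in V321L mice. The genotypes did not overlap in any of the 3 (exact permutation test, p = 0.0286 in each).

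The share of GCs in which *mt-Co3* was seen rose with its level in V321L mice. For *mt-Nd5* the mean share rose before thinning to equal depth but not after it. *mt-Co3* had a UMI in 20.5% to 25.1% of WT and 90.4% to 98.4% of V321L GCs, and in between 12.3% and 22.0% and between 50.7% and 87.2% after thinning to 1000 UMIs. *mt-Nd5* had a UMI in 14.1% to 17.7% of WT and 16.7% to 37.3% of V321L GCs, which after thinning became 8.17% to 12.8% and 3.87% to 15.7%. The genotypes thus overlapped for *mt-Nd5* both before and after thinning. Its means over mice were 16.1% in WT and 27.6% in V321L GCs before thinning, and 9.86% and 9.49% after it. Its mean level was 135 CPM in WT and 119 CPM in V321L GCs. No cell class that lacks mitochondrial RNA was at hand as a background for these shares, and the free RNA described above is in them.

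Nuclear-encoded genes of the same organelle were counted in the same GC fit. Of 79 tested nuclear subunits of the respiratory complexes and ATP synthase, 76 were called higher and 1 lower in V321L GCs, with a median log2 fold change of 3.0. Of 78 mitochondrial ribosomal proteins 67 were higher and 3 lower (median 1.86), and of 26 outer membrane and import genes 23 were higher and 1 lower (median 1.56). Of 32 genes for transcription, replication and RNA handling in the mitochondrion 19 were higher and 5 lower (median 0.48). In low-UMI barcodes 79 of 80 nuclear subunits were higher and 0 lower (median 3.97). Mitochondrial ribosomal proteins had 76 of 78 higher and 0 lower there (median 3.14). Outer membrane and import genes had 22 of 27 and 0 (median 2.20), and the last list 14 of 28 and 4 (median 0.70). Over all genes tested there 37.6% were higher and 37.6% lower (median -0.0076). Cytosolic ribosomal protein genes, which do not belong to this organelle, also took a larger share in V321L mice. They took 0.0501% to 0.129% of the RNA UMIs of GCs in WT and 0.884% to 2.09% in V321L mice. In low-UMI barcodes they took 0.798% to 1.44% and 9.75% to 11.2%. In GCs 38.6% of all tested genes were higher and 31.8% lower. The median over all genes in GCs was 0.11. With library sizes in place of TMM normalization that median was 0.55, with 6694 genes higher and 2287 lower instead of 4872 and 4015, and 9 of the 10 mitochondrially encoded genes were still called higher.

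Among the genes whose levels went most closely with the summed 10 genes over the 4 classes and the low-UMI barcodes of the 8 mice (40 points, centred within each mouse) were *Cfl1*, *Rpl29*, *Gm42418* and *AY036118*, out of 9942 genes with a mean of 10 or more CPM. Pearson's r was 0.983, 0.971, 0.968 and 0.962 for them, and between 0.988 and 0.997 for the 10 genes themselves, each of which is part of the sum. *Cfl1* encodes the actin-severing protein cofilin and *Rpl29* a ribosomal protein, while *Gm42418* and *AY036118* are unannotated loci that share sequence with ribosomal RNA. The points share libraries and depth, and the low-UMI barcodes lie at one end in every mouse, so the values are a description only.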

How the data were processed

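DG nuclei of 4 WT and 4 V321L mice were measured, 1 library per mouse. The authors aligned and counted the reads with Cell Ranger ARC and deposited raw counts (RNA UMIs per gene and ATAC counts per peak) for all barcodes. The labels name mm10, Cell Ranger, Seurat and Signac. The peaks hold no mitochondrial region. Total RNA counts per library lay between 4326426 and 23582057, and totals and their intervals cover counting error only. Samples are separate mice, so p-values rest on the spread between mice, which in edgeR is estimated with the help of all genes.

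Nuclei had more than 500 and under 8916.1 UMIs, more than 250 and under 3307.5 genes and at least 500 ATAC counts. Doublets with a Scrublet score (scanpy 1.11.5) above the library mean + 2 SD were removed. A nucleus went to the class with the most markers detected, at least 2 and more than for any other class. The limit of 2.787% on mitochondrial UMIs was an alternative only. Counts were summed per mouse and class and tested in R 4.3.3 with edgeR 4.0.16 (TMM normalization, its filter on low counts, Benjamini-Hochberg at 0.05); DESeq2 1.42.0 was an alternative. Relative fits used the UMIs of the 10 genes as library size and were added after seeing the data. Shares were compared over the 70 assignments of 4 against 4 mice, and classes by 256 sign flips, with Python 3.11.15, numpy 2.4.6 and scipy 1.17.1. Positions and lengths come from the RefSeq gene table of GRCm38, which is mm10.

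The test was tested on simulated data: for WT against V321L GCs, with 12395 genes, 200 genes were given a log2 change of 1 and a dispersion of 0.05, and 55% of them were recovered, with 4 false calls. In the GC fit itself 4872 genes were called higher and 4015 lower of 12625. The simulated setting thus differs from the data, and its false calls do not give the error rate of that fit. Named are the 10 genes, the other mitochondrially encoded genes and the 5 genes most correlated with their sum, 1 of which is not reported here. The genes, lists and markers were chosen with earlier results of these data known. Alternatives changed the limits on nuclei, doublets, gate, normalization, filter, covariates, depth, barcode range and the mice included. ATAC values were used only to choose nuclei. Mitochondrial ribosomal and transfer RNAs were not analysed here.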

Additional observations from a re-analysis of the deposited data

Results flagged for a closer look

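In 54 groups of 4 mice tested for a mouse that stands apart (Dixon's test), 1 was found. Chance alone gives about 1 in every 20 groups, so 1 in 54 is no more than chance gives. The GABAergic neurons of WT M1 had a mitochondrial share of 0.433%, where the nearest WT mouse had 0.178%, a gap of 0.86 of the range of the 4. The value rests on 357 UMIs of the 10 genes in 51 nuclei. WT M1 was also the library with the fewest RNA UMIs, 4326426, and had the highest WT share in GCs and OPCs, 0.329% and 0.405%. The part of depth in this value was not tested.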

How the results depend on the processing

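The count of 9 genes called higher in V321L GCs stayed between 7 and 9 in the GC alternatives run. It was 7 with the limit on the mitochondrial share and with DESeq2, between 7 and 9 without 1 mouse, and 9 with the replicate block. The labels do not say that the names F1, F2, M1 and M2 pair mice of the 2 genotypes. The correlations of the deviations of same-named mice were 0.052, 0.276, -0.124 and 0.046. These values alone cannot settle whether such mice shared a preparation. With the replicate block *mt-Nd5* was called lower (-0.74, adjusted p = 0.0176), as it was without a filter on low counts (-0.44, adjusted p = 0.0111). In the other classes the counts without 1 mouse were 7 to 9 (astrocytes or radial glia), 8 to 9 (GABAergic neurons), 8 to 9 (OPCs) and 6 to 7 (low-UMI barcodes). The number of classes that differed from GCs was 1, also without any mouse, and 2 with a gate of 3 markers. The genotype difference in the GC share lay between 0.639 (limit on the mitochondrial share) and 1.45 (no ATAC minimum) percentage points over the settings for nuclei and between 0.815 and 1.33 without 1 mouse, that of low-UMI barcodes between 6.80 and 9.17, and that of their log2 ratio between 0.91 and 1.73. In the depth ranges the difference lay, without 1 mouse, between 1.57 and 2.03 (over 500 UMIs), 1.05 and 1.41 (from 1000), 0.646 and 1.07 (from 2000) and 0.928 and 1.54 (from 4000). In these and for the GC share p was 0.0571 without any 1 WT mouse, which 3 against 4 mice gave without overlap, and 0.0286 without any 1 V321L mouse. The ratio of a class to GCs, which was not called for either class, changed sign on the log2 scale for GABAergic neurons (from -0.22 to 0.28 without an ATAC minimum) and for OPCs (from 0.077 to -0.076 with the limit on the mitochondrial share, -0.050 without an ATAC minimum and -0.44 without upper limits, and, leaving out 1 mouse, between -0.012, without V321L F2, and 0.25, without WT F1); the cause was not tested. For *mt-Nd5*, which was not called in these classes, the log2 difference also changed sign without 1 mouse. In astrocytes or radial glia it went from 0.06 to -0.14 (without WT F1), -0.13 (without WT F2) and -0.34 (without V321L M2). In GABAergic neurons it went from 0.18 to -0.036 (without WT M2) and -0.23 (without V321L M2). Of the alternatives run for the remaining results here, none reversed a direction. Depth limits the WT values of OPCs, which rest on as few as 90 UMIs of the 10 genes, those of the smaller classes, which rest on as few as 8, and V321L GCs under 1000 UMIs, which number as few as 9 in a mouse.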
